A study of Mus musculus with 6 samples.

Results

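The autophagy machinery was followed through 53 genes of 26436 in the table of all genes: the ATG genes, the ULK kinases, the class III phosphoinositide 3-kinase complex, the WIPI proteins, the ATG8 family, cargo receptors, late-acting tethers, and the transcription factor genes Tfeb, Tfe3 and Mitf. The rule matches gene symbols and holds no measured value, but it was written with earlier results of these data known. RNA was sequenced from the mouse CAD line, labelled a catecholaminergic line from the central nervous system. The 3 differentiated samples had spent 5 days in DMEM/F12 medium without serum but with insulin, transferrin and selenium, whereas the 3 undifferentiated samples grew in the same base medium with fetal bovine serum. Penicillin and streptomycin were in both media. All samples carry the one line, without any added gene or deletion named in the labels. Serum loss, the added insulin, transferrin and selenium, and differentiation itself cannot be told apart in this design.

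Autophagy encloses cytoplasm in a membrane sac, the autophagosome, which fuses with lysosomes so that the contents are broken down. ULK1 kinase starts the process, a phosphoinositide 3-kinase complex built on Beclin 1 marks the site, and a ubiquitin-like system attaches ATG8 proteins (the LC3 and GABARAP groups) to the growing membrane, where cargo receptors bind them. Neurons depend on this route to clear protein aggregates and worn mitochondria. TFEB, TFE3 and MITF are related transcription factors that switch on lysosomal and autophagy genes and are kept in the cytoplasm by the kinase mTORC1 when nutrients are plentiful.

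Increases were called in the ULK complex, the ATG8 family, the cargo receptors and the late tethers, with a few in membrane supply and conjugation and none in the phosphoinositide 3-kinase complex or the TFEB family. Among the 53 members, all of which were tested, 20 were called higher (37.7%) and 1 lower (1.89%) in differentiated cells by the authors' deposited table, where the Wald test's adjusted p, taken over 20285 genes, was under 0.05. Over all genes tested, 35.9% were called, 18.2% higher and 17.7% lower. Every member had a mean normalized count of at least 100, and among the 13197 genes at or above that mean 47.5% were called, 21.9% higher and 25.6% lower. The median log2 ratio of differentiated to undifferentiated cells was 0.18 over the members and 0.01 over all genes tested. Changes were mostly small: 3 members, Calcoco1, Ulk1 and Pink1, changed at least 2-fold. When each gene was tested against a change of at least 1.2-fold, 7 of the 53 members were still called higher and 0 lower. Over all 20285 genes tested, the shares were 7.55% and 5.62%, and they were not computed at a mean of at least 100. The 7 members were Ulk1, Map1lc3a, Gabarapl1, Map1lc3b, Calcoco1, Pink1 and Tecpr1. The other 32 members were not called, and for 29 of them the 95% interval of the fold change lay within 1.5-fold either way, the exceptions being Ulk4, Atg9b and Atg16l2.

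**Figure D1:**
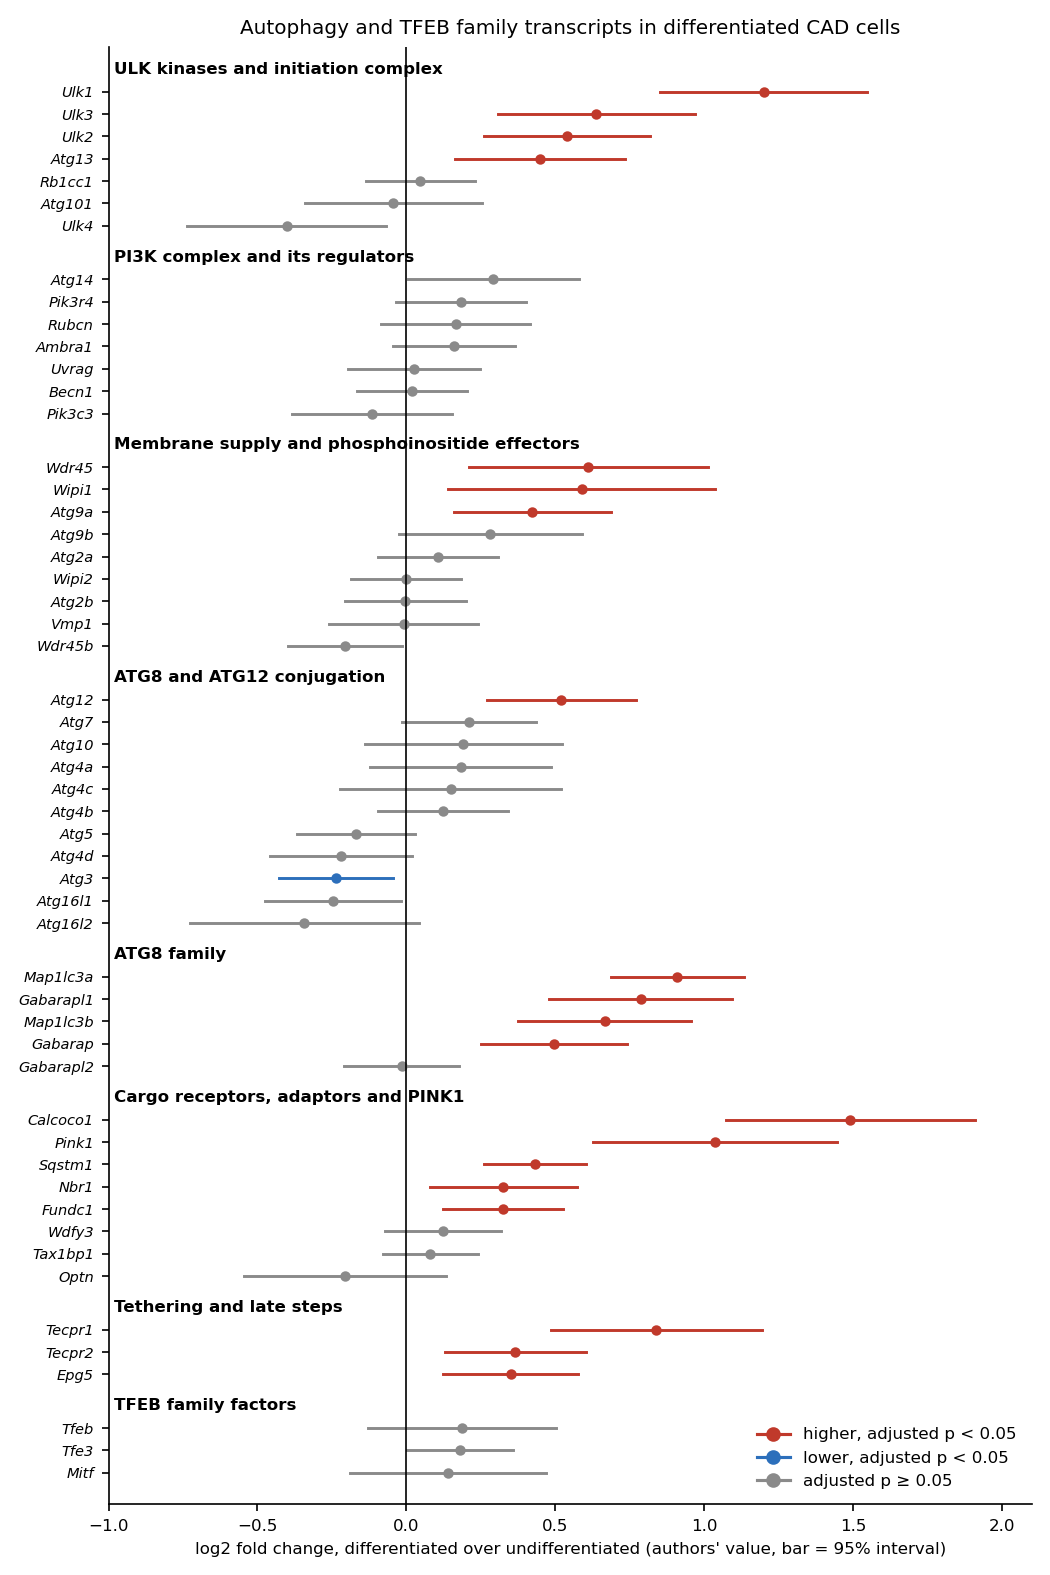
Log2 ratio of differentiated to undifferentiated cells (x axis, the authors' value) for each of the 53 genes (y axis), grouped by role, with bars for the 95% interval, red for called higher, blue for called lower and grey for not called. Red points lie in 6 of the 8 roles, including Wdr45, Wipi1 and Atg9a in membrane supply and Atg12 in conjugation, while the phosphoinositide 3-kinase complex and the TFEB family are grey throughout.

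The catecholaminergic label was borne out only in part by its defining genes. Of 12 neuronal and catecholaminergic marker genes, 7 were called higher and 2 lower by the authors' deposited table, and tyrosine hydroxylase, Th, had a mean of only 91.3 normalized counts, while the noradrenaline-forming enzyme Dbh was called lower at -5.35. Of 14 marker genes of glia, microglia, endothelium and fibroblasts, 11 were in the table and 8 were tested, and 3 (Pdgfrb, Pecam1 and Mbp) were called higher by the authors' deposited table. The implied summed level of the 11 genes was 1319 normalized counts in differentiated cells and 654.4 in undifferentiated cells, mostly from Pecam1 and Pdgfrb, against 60931 and 44812 for the neuronal list. The astrocyte gene Gfap had a mean of 4.15. Whether other cell types had a part in the autophagy results was not tested. In RNA from a whole culture, a lower transcript in every cell and fewer cells that carry it cannot be told apart.

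Because only the authors' comparison was analysed here, a level in one group is an implied mean, computed from the authors' mean normalized count and fold change with both groups taken as equally large; values of single samples were not analysed here.

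The ULK kinases led the initiation step. Ulk1, the kinase that starts autophagosome formation, lies on chromosome 5 from 110784488 to 110810097 (GRCm38). Its implied mean was 2369 normalized counts in differentiated cells and 1032 in undifferentiated cells. That is a log2 fold change of 1.2 (standard error 0.18 and adjusted Wald p 4.43e-10) by the authors' deposited table, or 2.30-fold with a 95% interval of 1.80 to 2.92. Ulk2, its close relative, rose less, by a log2 fold change of 0.54 (standard error 0.14 and adjusted Wald p 0.000807) by the authors' deposited table, and the 95% intervals of the 2 genes (0.85 to 1.55 for Ulk1, 0.26 to 0.82 for Ulk2) did not overlap. Ulk3, a more distant kinase of the group, had a log2 fold change of 0.64 (standard error 0.17 and adjusted Wald p 0.000856) by the authors' deposited table. Atg13, the scaffold that binds ULK1 in its complex, rose by 0.45 (standard error 0.15 and adjusted Wald p 0.00824) on the log2 scale by the authors' deposited table.

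The remaining genes of the group were not called. Rb1cc1, which encodes the large scaffold FIP200, had implied means of 3508 normalized counts in differentiated cells and 3395 in undifferentiated cells, with a log2 fold change of 0.05 (standard error 0.09) by the authors' deposited table. Atg101, the partner of ATG13, stood at -0.04 (standard error 0.15) by the authors' deposited table. Ulk4, which encodes a pseudokinase with no settled place in autophagy, stood at -0.40 (standard error 0.17 and adjusted Wald p 0.0510) by the authors' deposited table and so just missed the threshold. It passed in 4 alternative analyses at the same threshold, with adjusted p from 0.0301 to 0.0436. Exons of Ulk4 overlap those of Ctnnb1 on the opposite strand over 759 bases, and Ctnnb1, with a far higher mean of 13872 normalized counts, had a log2 fold change of -0.45 by the authors' deposited table. Since the strand setting of the counting is not given in the sources used here, reads of the 2 genes may not have been separated.

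None of the 7 genes of the phosphoinositide 3-kinase complex and its regulators was called. Becn1, which encodes the Beclin 1 scaffold, had implied means of 2293 normalized counts in differentiated cells and 2264 in undifferentiated cells, and its log2 fold change was 0.02 (standard error 0.09) by the authors' deposited table. The lipid kinase gene Pik3c3 stood at -0.12 (standard error 0.14), and its regulatory subunit gene Pik3r4 at 0.18 (standard error 0.11), by the authors' deposited table. Atg14, which directs the complex to autophagosomes, had the highest value of the 7, 0.29 (standard error 0.15 and adjusted Wald p 0.11) by the authors' deposited table. Uvrag (0.03) and Rubcn (0.17), which belong to the endosomal form of the complex, and the Beclin 1 activator gene Ambra1 (0.16) completed the group by the authors' deposited table. The median was 0.16, and the 95% intervals of all 7 lay within 1.5-fold either way.

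Among the 9 genes of membrane supply and phosphoinositide binding, 3 were called higher. Wipi1, which binds the lipid made by that kinase, had implied means of 3288 normalized counts in differentiated cells and 2187 in undifferentiated cells, a log2 fold change of 0.59 (standard error 0.23 and adjusted Wald p 0.0310) by the authors' deposited table. Its paralogue Wipi2, which recruits the ATG16L1 conjugation complex, had implied means of 3867 and 3871, a log2 fold change of -0.0012 (standard error 0.09) by the authors' deposited table. The interval of Wipi1 was wide, 0.14 to 1.04, and it overlapped that of Wipi2, -0.19 to 0.18. The other pair of the family lay on either side of 0: Wdr45 was called higher at 0.61 (standard error 0.20 and adjusted Wald p 0.0106) and Wdr45b was not called at -0.21 (standard error 0.10 and adjusted Wald p 0.0830) by the authors' deposited table. Their 95% intervals, 0.21 to 1.01 for Wdr45 and -0.40 to -0.02 for Wdr45b, did not overlap. Atg9a, the scramblase whose vesicles seed the membrane, rose by 0.42 (standard error 0.13 and adjusted Wald p 0.00685) on the log2 scale by the authors' deposited table. Its paralogue Atg9b (0.28, SE 0.16), the lipid transfer genes Atg2a (0.11) and Atg2b (-0.0039), and Vmp1 (-0.0090), a scramblase of the endoplasmic reticulum, were not called by the authors' deposited table.

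The conjugation genes held the only member called lower. Of 11 genes, 1 was called higher and 1 lower. Atg12, the ubiquitin-like protein joined to ATG5, had implied means of 1914 normalized counts in differentiated cells and 1335 in undifferentiated cells, and a log2 fold change of 0.52 (standard error 0.13 and adjusted Wald p 0.000305) by the authors' deposited table. Atg3, the enzyme that transfers ATG8 proteins onto lipid, had implied means of 963.4 normalized counts in differentiated cells and 1135 in undifferentiated cells. It fell by 0.24 on the log2 scale (standard error 0.10 and adjusted Wald p 0.0463) by the authors' deposited table, a change whose 95% interval ran from -25.7% to -2.96%. That call was near the threshold and was lost in 4 of the alternatives tried at the same threshold, with adjusted p from 0.0602 to 1.00. Atg5 (-0.17), Atg16l1 (-0.25) and Atg16l2 (-0.34), whose products form the complex that ATG12 joins, were below 0 without being called, and the activating enzyme gene Atg7 (0.21) and Atg10 (0.19), which conjugates ATG12, were above 0 without being called, by the authors' deposited table. The 4 protease genes that trim and release ATG8 proteins were not called: Atg4a (0.18), Atg4c (0.15), Atg4b (0.12) and Atg4d (-0.22) by the authors' deposited table. Atg4a has a close copy annotated as Atg4a-ps, whose reads it may share, with a mean of 145.6 normalized counts against 244.6 for Atg4a by the authors' deposited table. Exons of Kri1 on the opposite strand cover 19.3% of the exon length of Atg4d, and Kri1 had a mean of 344.6 normalized counts by the authors' deposited table.

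Of the 5 ATG8 genes, 4 were called higher, and Gabarapl2 was not. Map1lc3a, which encodes LC3A and lies on chromosome 2 from 155276297 to 155278073 (GRCm38), had implied means of 1342 normalized counts in differentiated cells and 714.5 in undifferentiated cells. Its log2 fold change of 0.91 (standard error 0.11 and adjusted Wald p 5.23e-14) had the smallest adjusted p of any member by the authors' deposited table. Map1lc3b, the LC3 form most used to mark autophagosomes, had implied means of 3302 and 2081, a log2 fold change of 0.67 (standard error 0.15 and adjusted Wald p 5.48e-05) by the authors' deposited table. Gabarapl1 rose by 0.79 (standard error 0.16 and adjusted Wald p 5.00e-06) and Gabarap by 0.50 (standard error 0.13 and adjusted Wald p 0.000421) on the log2 scale by the authors' deposited table. Gabarapl2, also known as GATE-16, had implied means of 3285 normalized counts in differentiated cells and 3320 in undifferentiated cells, a log2 fold change of -0.02 (standard error 0.10) by the authors' deposited table. Its 95% interval, -0.21 to 0.18, overlapped none of the intervals of the other 4 genes, the lowest of which began at 0.25.

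The mixture of ATG8 transcripts shifted accordingly. Per kilobase of the longest principal transcript, the 5 genes together had an implied level of 6827 normalized counts in differentiated cells and 5057 in undifferentiated cells, a ratio of 1.35. Gabarapl2 made up 28.7% of that sum in differentiated cells and 39.2% in undifferentiated cells, and Map1lc3a 17.7% and 12.7%. Gabarap held 28.0% in differentiated cells and 26.7% in undifferentiated cells, Map1lc3b 19.1% and 16.3%, and Gabarapl1 6.57% and 5.14%. The share of Map1lc3b depended on the length used: with the union of all annotated exons it was 9.17% in differentiated cells, below the 23.7% of Map1lc3a. Among the ULK kinases, on the same scale, Ulk1 held 46.5% of the summed level in differentiated cells and 32.9% in undifferentiated cells.

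**Figure D2:**
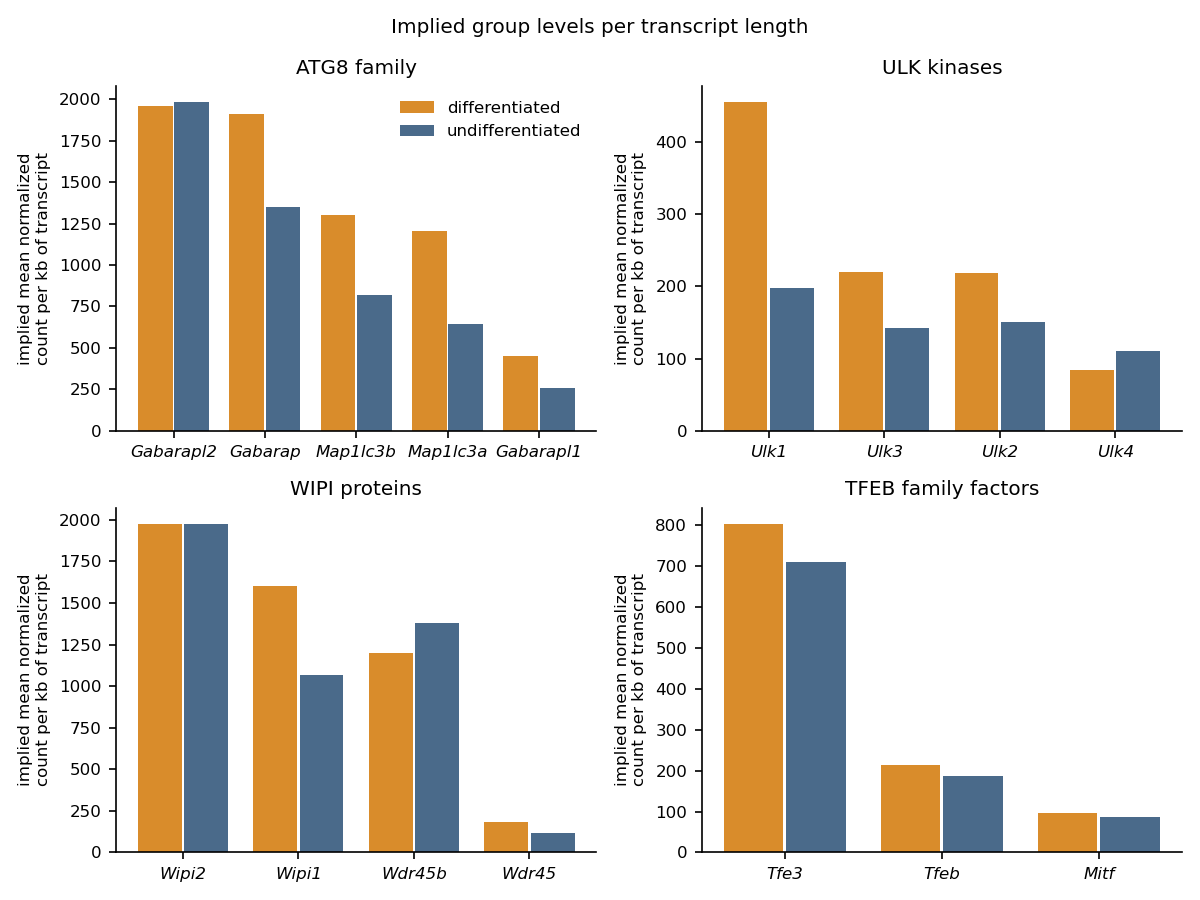
Implied mean normalized count per kilobase of the longest principal transcript (y axes, linear from 0) for each gene of 4 families (x axes), with differentiated cells in orange left of undifferentiated cells in blue; no error is drawn because single-sample values were not analysed here. Gabarapl2 and Wipi2 are level between the groups while Map1lc3a, Ulk1 and Wipi1 stand higher in differentiated cells, and Tfe3 is the tallest of its family in both groups.

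Of the 8 genes for cargo receptors, which carry selected material to ATG8 proteins, for an aggregate adaptor and for the kinase PINK1, 5 were called higher, Pink1 among them. Calcoco1, a receptor for endoplasmic reticulum and Golgi fragments, had the largest change of any member. It lies on chromosome 15 from 102706777 to 102722178 (GRCm38), and its implied means were 2182 normalized counts in differentiated cells and 776.8 in undifferentiated cells. The log2 fold change of Calcoco1 was 1.49 (standard error 0.21 and adjusted Wald p 8.47e-11) by the authors' deposited table, or 2.81-fold with a 95% interval of 2.1 to 3.75. Pink1, the kinase that tags damaged mitochondria for removal, had implied means of 1213 and 591.8, a log2 fold change of 1.04 (standard error 0.21 and adjusted Wald p 7.47e-06) by the authors' deposited table. Sqstm1, which encodes p62, the receptor for ubiquitin-tagged aggregates, had the highest mean of all members, above 98.9% of tested genes. Its implied means were 23073 normalized counts in differentiated cells and 17097 in undifferentiated cells, and its log2 fold change was 0.43 (standard error 0.09 and adjusted Wald p 7.84e-06) by the authors' deposited table. Nbr1, a receptor that works with p62 (0.33, SE 0.13, adjusted Wald p 0.0305), and Fundc1, a receptor in the outer mitochondrial membrane (0.32, SE 0.10, adjusted Wald p 0.00631), were also called higher by the authors' deposited table. The ubiquitin receptor genes Tax1bp1 (0.08, SE 0.08) and Optn (-0.21, SE 0.17) and the large aggregate adaptor gene Wdfy3 (0.12, SE 0.10) were not called by the authors' deposited table.

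All 3 genes of the late steps were called higher. Tecpr1, which links autophagosomes to lysosomes, had implied means of 1231 normalized counts in differentiated cells and 688.4 in undifferentiated cells, and a log2 fold change of 0.84 (standard error 0.18 and adjusted Wald p 2.85e-05) by the authors' deposited table. Tecpr2 (0.37, SE 0.12) and Epg5, a tether needed for fusion (0.35, SE 0.12), each had an adjusted Wald p of 0.00918 by the authors' deposited table.

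**Figure D3:**
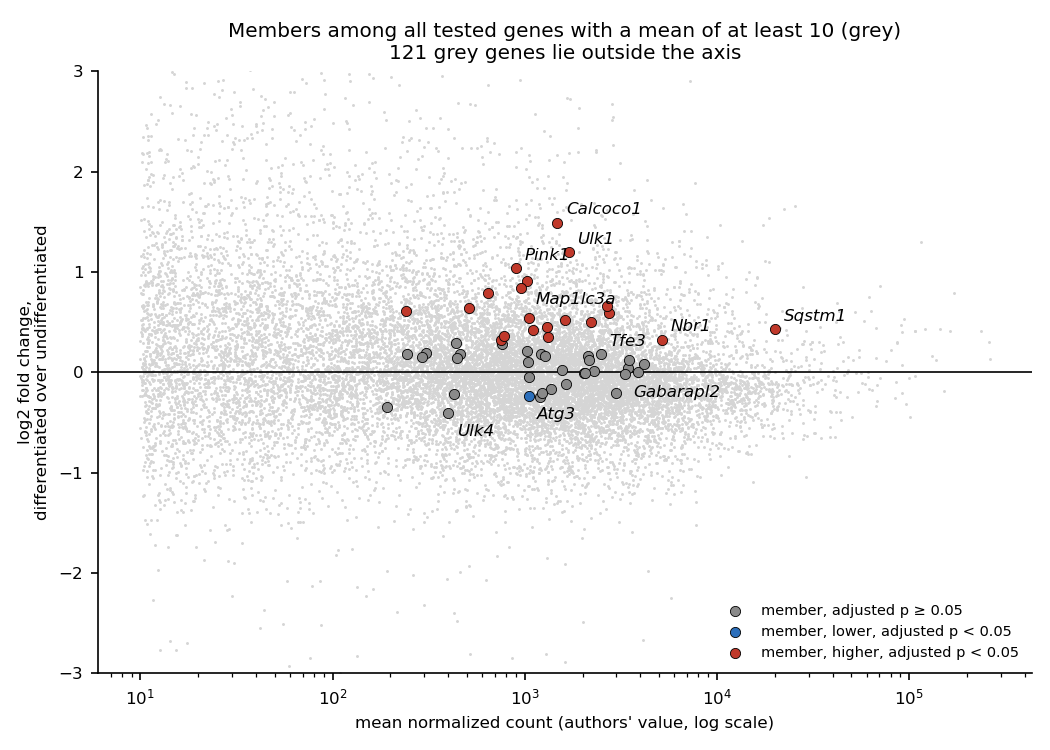
Mean normalized count (x axis, log scale) against log2 ratio of differentiated to undifferentiated cells (y axis), both the authors' values, for the 53 genes in colour over all tested genes with a mean of at least 10 in grey. Sqstm1 is the most abundant member, and the members called higher reach at most 1.49, with many grey genes above them.

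None of the 3 genes of the TFEB family was called. Tfe3 had implied means of 2633 normalized counts in differentiated cells and 2325 in undifferentiated cells, with a log2 fold change of 0.18 (standard error 0.09 and adjusted Wald p 0.112) by the authors' deposited table. Tfeb had implied means of 490.1 and 430.7, a log2 fold change of 0.19 (standard error 0.16 and adjusted Wald p 0.406) by the authors' deposited table. Mitf had implied means of 466.4 and 423.4, a log2 fold change of 0.14 (standard error 0.17 and adjusted Wald p 0.574) by the authors' deposited table. The upper 95% limits were 0.36 for Tfe3, 0.50 for Tfeb and 0.47 for Mitf, so that a rise of 1.5-fold lay outside each interval. Tfe3 passed with the trend over mean expression removed (adjusted p 0.0297). Per kilobase of the longest principal transcript, Tfe3 held 72.2% of the summed level of the 3 genes in differentiated cells and 72.1% in undifferentiated cells. With the union of all annotated exons as the length, its share was 63.7% in differentiated cells and 63.5% in undifferentiated cells. These are transcript levels; the location of the proteins, through which mTORC1 acts on them, was not measured.

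Promoter sequences bear on the TFEB family through the motif CACGTG and its longer form TCACGTGA, both of which read the same on either strand; the longer form contains the shorter. RefSeq windows from 250 bases before to 50 after the transcript start (GRCm38.p6) matched 44 of the 53 members. CACGTG was found for 5 of them (11.4%), Atg3, Atg5, Atg7, Atg14 and Rubcn, against 12.2% of 8460 genes averaging 100 or more and 8.09% of all 27025 genes with a window. TCACGTGA was found only for Atg3 (2.27%), against 2.35% and 1.12%. Of the 17 members called higher that had a window, 0 held either motif. The FOXO motif GTAAACA, searched on both strands, was in 0 of the 44, against 3.0% of the genes averaging 100 or more. The members stood close to the background for both TFEB motifs, and distal sites were not searched. The promoters of the 2 largest increases and of the only decrease are shown so that they can be compared, with capitals for CACGTG and TCACGTGA; in Atg3 these begin 94 and 72 bases before the start.
Calcoco1, chr15:102722129-102722428, minus strand: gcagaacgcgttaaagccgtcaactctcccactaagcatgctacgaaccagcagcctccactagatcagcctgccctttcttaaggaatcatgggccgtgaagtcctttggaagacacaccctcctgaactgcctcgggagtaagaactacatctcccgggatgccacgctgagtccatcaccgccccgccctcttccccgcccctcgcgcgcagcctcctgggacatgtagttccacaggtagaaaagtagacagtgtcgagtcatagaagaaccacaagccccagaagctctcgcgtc
Ulk1, chr5:110810032-110810331, minus strand: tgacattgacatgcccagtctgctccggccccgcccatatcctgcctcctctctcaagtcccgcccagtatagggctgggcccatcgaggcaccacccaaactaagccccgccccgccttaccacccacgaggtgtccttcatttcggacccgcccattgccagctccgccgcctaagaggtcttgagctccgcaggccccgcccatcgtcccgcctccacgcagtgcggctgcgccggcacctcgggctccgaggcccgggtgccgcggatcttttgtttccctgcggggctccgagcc
Atg3, chr16:45158579-45158878, plus strand: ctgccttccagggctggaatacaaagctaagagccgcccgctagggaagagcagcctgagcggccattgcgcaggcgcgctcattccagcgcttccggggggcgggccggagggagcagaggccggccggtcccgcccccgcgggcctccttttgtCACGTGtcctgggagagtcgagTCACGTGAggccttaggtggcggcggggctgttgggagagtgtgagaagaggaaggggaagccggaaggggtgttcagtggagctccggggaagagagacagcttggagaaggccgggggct

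Genes connected with the pathway were read from lists chosen by function, and their counts stand beside 18.2% called higher and 17.7% called lower over all genes tested, or 21.9% and 25.6% at a mean of at least 100. Lysosomal genes known as TFEB targets were called higher in 17 of 33 tested cases (51.5%) and lower in 1 (3.03%), with a median log2 fold change of 0.32. Gaa, acid alpha-glucosidase (1.02, SE 0.09), and Glb1, beta-galactosidase (0.79, SE 0.15), were among those called higher by the authors' deposited table. Tmem55a, which encodes a lysosomal phosphoinositide phosphatase, was the one called lower at -0.44 (standard error 0.14) by the authors' deposited table. In the authors' deposited sheet of KEGG pathway statistics, 83 pathways were listed as raised, among them Lysosome (115 genes, q-value 0.00158), Mitophagy - animal (61 genes, q-value 0.0322) and Autophagy - animal (123 genes, q-value 0.0347). Their mean set statistics were 2.18 for Lysosome, 1.41 for Mitophagy and 1.37 for Autophagy in the authors' deposited sheet. Autophagy stood at place 57 when the 83 pathways were ordered by their deposited p-values. These sets hold many of the genes described above and are no independent measure of them.

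Among 22 genes for the control of TFEB by mTORC1 and folliculin, 4 were called higher (18.2%) and 2 lower (9.09%), with a median of 0.04. Over all genes tested, 18.2% were called higher and 17.7% lower. All 22 had a mean of at least 100, where those shares were 21.9% and 25.6%. Rragd, a Rag GTPase that brings TFEB to the lysosome (0.47, SE 0.11), Slc38a9, an arginine sensor (0.38, SE 0.15), and Rraga, another Rag GTPase (0.33, SE 0.09), were called higher by the authors' deposited table. Deptor, an inhibitor of mTOR, fell by 1.4 on the log2 scale (standard error 0.19 and adjusted Wald p 1.17e-11) by the authors' deposited table, and Lamtor1, the lysosomal anchor of the Rag GTPases, was called lower at -0.29 (standard error 0.11). The kinase gene Mtor (-0.19, SE 0.11), its partner gene Rptor (-0.06, SE 0.09) and the folliculin gene Flcn (0.04, SE 0.12) were not called by the authors' deposited table.

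Sensors upstream of ULK1 moved in both directions. Of 15 tested genes, 5 were called higher (33.3%) and 2 lower (13.3%), with a median of -0.09. The stress-induced mTORC1 inhibitor gene Ddit4 (1.47, SE 0.56) and the sestrin genes Sesn3 (1.10, SE 0.18), Sesn2 (0.85, SE 0.19) and Sesn1 (0.58, SE 0.14), whose products restrain mTORC1, were called higher by the authors' deposited table, as was Nprl2 (0.40, SE 0.14). Subunit genes of AMPK, the energy sensor that activates ULK1, were lower where called: Prkag1 at -0.48 (standard error 0.14) and the catalytic gene Prkaa1 at -0.30 (standard error 0.09) by the authors' deposited table. The wider KEGG set named AMPK signaling pathway (115 genes) was nonetheless listed as raised in the authors' deposited sheet. Its q-value was 0.0112, and it stood at place 36 of the 83 in order of p-value. FOXO factors, which insulin signalling holds out of the nucleus and which act on autophagy genes in mouse muscle, were called higher in 3 of 4 cases. Foxo3 stood at 1.64 (standard error 0.19), Foxo6 at 0.54 (standard error 0.21) and Foxo4 at 0.43 (standard error 0.17) by the authors' deposited table, and Foxo1 had a mean of only 5.21 normalized counts.

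Autophagosome fusion genes were called higher in 5 of 15 cases (33.3%) and lower in 1 (6.67%), with a median of 0.22. Wdr91, an endosome maturation gene (0.64, SE 0.13), Stx17, the autophagosomal fusion protein gene (0.50, SE 0.13), and Vps39, a subunit of the HOPS tether (0.42, SE 0.13), led by the authors' deposited table, and the fusion protein gene Ykt6 was called lower (-0.27, SE 0.10). Other mitophagy and endoplasmic reticulum turnover genes were called higher in 7 of 16 cases (43.8%) and lower in 3 (18.8%), with a median of 0.17. The list pools genes that promote such turnover with genes that oppose it, among those called higher as well as lower. Its counts therefore give no direction for the process. Bnip3, a mitochondrial receptor also induced by low oxygen, had the largest value of the list with a wide error, 2.26 (standard error 0.74 and adjusted Wald p 0.00806), followed by the glycogen receptor gene Stbd1 (1.31, SE 0.14) and the Bnip3 relative Bnip3l (1.13, SE 0.40) by the authors' deposited table. Phb2, an inner membrane mitophagy receptor (-0.36, SE 0.10), Usp15, a deubiquitinase that opposes mitophagy (-0.30, SE 0.09), and the ribosome receptor gene Nufip1 (-0.25, SE 0.10) were called lower by the authors' deposited table.

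**Figure D4:**
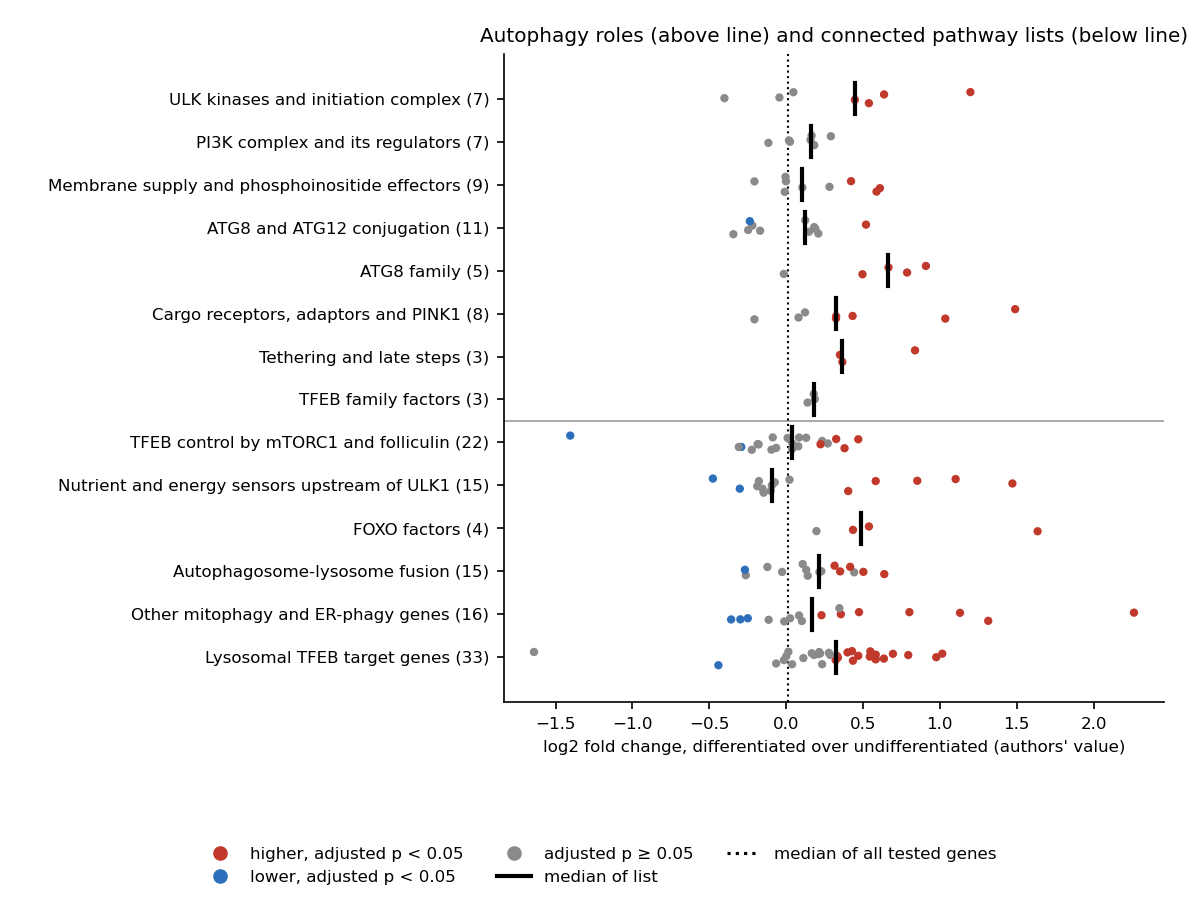
Log2 ratio of differentiated to undifferentiated cells (x axis, the authors' value) for each tested gene of the 8 autophagy roles and of 6 connected lists (y axis, number of genes in brackets), with a black bar at each median and a dotted line at the median of all tested genes. The ATG8 family has the highest median, 0.67, and the upstream sensors the lowest, -0.09, although 5 of their genes are called higher.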

How the data were processed

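Stranded libraries from 3 differentiated and 3 undifferentiated CAD samples were read as single ends of 50 bases, per the labels' protocols; whether samples of a group were separate cultures is not stated, so p-values may measure technical spread. Per the submitters' processing notes, FastQC 0.11.5, Trimmomatic 0.36, STAR 2.5.1a and DESeq2 were used with GRCm38.p6; the counter, its strand setting and the annotation are absent from the labels and headers read. The signal is the authors' mean normalized count per gene, per the file headers, and these sum to 38846803 over 26436 genes. The authors' deposited log2 fold changes and log2 standard errors give differentiated over undifferentiated cells, the authors' score is the Wald statistic, and the deposited adjusted p-values equal a Benjamini-Hochberg adjustment over 20285 genes (largest difference 1.44e-15). The other score column, the deposited KEGG set statistics, was read as given. Depth per sample and values of single samples were not analysed here, so no count model was fitted. The median standard error was 0.13 at a mean of at least 100.

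Genes were called at an adjusted p under 0.05. A 95% interval spans the log2 value plus or minus the normal quantile multiplied by the deposited standard error. Intervals of 2 genes were set side by side without a test, since errors of genes from the same libraries are not independent. GENCODE M21 gave coordinates and transcript lengths, and all 53 symbols matched. Calculations used Python 3.11.15, scipy 1.17.1 and pandas 2.3.3, and the adjustment was tested on simulated data. The genes and lists were chosen with earlier results of these data known. Named genes were every called member, all TFEB and ATG8 family genes, the most abundant uncalled member of each role, and up to 3 called genes each way per connected list with a mean of at least 100. Further uncalled members were named to account for each role. Sesn1, Nprl2, Mtor, Rptor, Flcn, Foxo1, Ctnnb1, Cntd1, Kri1, Atg4a-ps and single cell type markers were named after their values were seen. A gene that the rule names in a connected list is not reported here. The alternatives were other thresholds, other sets of genes for the adjustment, centring, removal of the trend over mean expression and a minimum change.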

Additional observations from a re-analysis of the deposited data

How the results depend on the processing

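The 20 increases numbered 17 to 21 under 8 of 9 alternatives (adjusted p under 0.01 or 0.1, adjustment over genes with a mean of at least 10 or 100 or over every gene with a p-value, either centring, trend removal) and 7 against a minimum 1.2-fold change. The single decrease, Atg3, was lost in 5 alternatives, and the count of decreases does not follow it alone. That count was 0 at an adjusted p under 0.01, over every gene with a p-value, centred on the implied group totals, and against 1.2-fold. With the trend removed it stayed at 1, with Ulk4 called in place of Atg3. It was 2, Ulk4 beside Atg3, over genes with a mean of at least 10 or of at least 100 and centred on the median gene, and 4 at an adjusted p under 0.1. No called member changed sign, and 7 of 21 calls held in all 9. In the connected lists, 40 genes were called higher and 9 lower. Against 1.2-fold these were 12 and 1, and with the trend removed 4 were lower. Over all genes tested, the shares were 18.2% higher and 17.7% lower in the main analysis and 7.55% and 5.62% against 1.2-fold. With the trend removed, 16.4% of all genes tested were lower. The cause of each change of count was not tested, except that a minimum change asks for more than a difference from 0. Leaving out single samples was not run, since single-sample values were not analysed here. No paired analysis was possible because the comparison was read without single-sample values. The labels state no pairing. The sample numbers are evenly spaced by the same step in both groups. Whether they mark matched sets is not stated, and pairing was not tested. The median standard error of members was 0.13 on the log2 scale, and how far depth sets it was not tested.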

Other observations

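The members lie on 19 chromosomes, and 2 pairs are separated by less than 100 kb. Atg13 and Ambra1 are 19.6 kb apart on chromosome 2, with log2 fold changes of 0.45 (SE 0.15) for Atg13 and 0.16 (SE 0.10) for Ambra1 by the authors' deposited table. Wdr45 and Tfe3 are 34.4 kb apart on the X chromosome, with 0.61 (SE 0.20) for Wdr45 and 0.18 (SE 0.09) for Tfe3 by the authors' deposited table. Exons of 20 members overlap those of another annotated gene, by at least 20% of their length in 4 cases (Becn1, Atg9a, Gabarapl1 and Wdr45). Cntd1, which covers 43.9% of the exon length of Becn1 on the opposite strand, had a mean of only 5.31 normalized counts by the authors' deposited table. For Atg9a (31.8%) and Wdr45 (24.7%) the overlapping gene lies on the same strand, so strand cannot separate their reads. That gene had a mean of 0.31 normalized counts for Atg9a by the authors' deposited table, and no value for Wdr45.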
